A study of Mus musculus with 6 samples.

Results

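The epicardial and mesothelial genes are 10 of the 17441 genes listed in at least 1 library of this mouse heart series. They were taken by name, with no measured value in the rule, though with earlier results of these data known. Each symbol was found in the libraries by its NCBI gene number. The list holds *Wt1*, *Tbx18*, *Bnc1*, *Aldh1a2*, *Upk3b*, *Upk1b*, *Msln*, *Lrrn4*, *Krt19* and *Prg4*. RNA was taken from cardiac tissue below the ligature of 12-week-old male mice on a C57BL/6 background, 3 days after surgery, and sequenced after poly(A) enrichment. WT Sham mice were wild type and had surgery without ligation, WT MI mice were wild type whose left anterior descending artery was tied off (myocardial infarction, MI), and *Card9* KO MI mice were *Card9* knockouts with the same ligation, at 2 libraries a group. Whether a library came from 1 mouse or several is not given in the sources used here, so a p-value measures only the spread between these libraries, which may be technical. *Card9* KO mice without ligation were not analysed here, so in a comparison of *Card9* KO MI with WT Sham, genotype and infarction cannot be told apart.

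The epicardium is the mesothelial sheet that covers the heart, and related mesothelia line the pericardium, pleura and peritoneum. In the embryo its cells produce retinoic acid, and some of them lose their epithelial character and enter the heart wall, where they give rise to fibroblasts and mural cells. In the adult heart the sheet is mostly quiescent, and after injury it is known to thicken and to switch embryonic genes such as *Wt1*, *Tbx18* and *Aldh1a2* on again.

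The list divides by role. *Wt1*, *Tbx18* and *Bnc1* encode transcription factors, *Aldh1a2* the enzyme that oxidises retinaldehyde to retinoic acid, *Upk3b* and *Upk1b* uroplakins of the cell membrane, *Msln* the surface protein mesothelin, *Lrrn4* a leucine-rich repeat membrane protein, *Krt19* a keratin of simple epithelia and *Prg4* the lubricating proteoglycan lubricin. None of the 10 marks epicardium alone: *Wt1* is known in endothelial cells of injured hearts and *Tbx18* in pericytes and smooth muscle. In the mm9 build with the GENCODE annotation, *Wt1* (gene 22431) spans chr2:104966686-105013773 on the plus strand, *Aldh1a2* (gene 19378) chr9:71063596-71144050 on the plus strand and *Tbx18* (gene 76365) chr9:87597635-87626095 on the minus strand. *Prg4* (gene 96875) lies at chr1:152296542-152313295 and *Krt19* (gene 16669) at chr11:100002124-100009979, both on the minus strand. *Upk3b* (gene 100647) lies at chr5:136514366-136521173 on the plus strand. *Upk1b* (gene 22268, chr16:38773297-38800316), *Msln* (gene 56047, chr17:25885559-25891272), *Lrrn4* (gene 320974, chr2:132694041-132706627) and *Bnc1* (gene 12173, chr7:89111558-89137185) are on the minus strand. All 10 are annotated as protein-coding, and each value covers a whole gene rather than an exon or a UTR.

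The RefSeq promoter table of GRCm38.p6 held 5 of the 10 members, and the 250 bases before each start were also found once in mm9, the build of the files. *Aldh1a2* and *Tbx18* are shown because both rose in both MI groups, and *Upk3b* because its FPKM was lowest in those groups. The windows are chr9:71063346-71063595 on the plus strand for *Aldh1a2*, chr9:87626096-87626345 on the minus strand for *Tbx18* and chr5:136514116-136514365 on the plus strand for *Upk3b*. Capitals mark a motif found, and each run ends at the base before the start.
Aldh1a2: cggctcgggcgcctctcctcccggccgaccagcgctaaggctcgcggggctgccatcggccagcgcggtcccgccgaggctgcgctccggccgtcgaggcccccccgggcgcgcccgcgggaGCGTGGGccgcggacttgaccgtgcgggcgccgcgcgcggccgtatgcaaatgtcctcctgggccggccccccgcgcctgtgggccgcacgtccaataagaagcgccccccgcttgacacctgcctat
Tbx18: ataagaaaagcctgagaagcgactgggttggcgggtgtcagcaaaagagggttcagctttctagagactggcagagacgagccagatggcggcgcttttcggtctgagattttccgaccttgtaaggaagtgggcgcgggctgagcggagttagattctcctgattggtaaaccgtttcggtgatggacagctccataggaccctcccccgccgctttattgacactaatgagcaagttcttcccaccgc
Upk3b: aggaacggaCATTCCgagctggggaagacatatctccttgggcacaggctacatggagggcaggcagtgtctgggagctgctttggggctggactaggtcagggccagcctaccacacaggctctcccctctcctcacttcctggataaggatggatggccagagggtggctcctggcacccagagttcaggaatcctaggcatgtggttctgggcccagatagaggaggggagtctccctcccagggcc

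The motifs searched on both strands were the TEAD core GGAATG, the T-box half-site GGTGTGA, the core GCGTGGG shared by EGR factors and WT1, and the TATA box TATAAA. The *Aldh1a2* window held the EGR and WT1 core once, with its first base 128 bases before the start, and 77.6% of its bases were G or C. The *Tbx18* window, at 54.0% G or C, held none of the 4 motifs. The *Upk3b* window, at 60.8% G or C, held the TEAD core on the opposite strand, with its first base 241 bases before the start. Of the 2 members not shown in full, *Lrrn4* held the TEAD core 196 bases before its start and *Bnc1* held none of the 4. Among all 32851 promoters of the table, 12.6% held the TEAD core, 4.3% the EGR and WT1 core, 3.33% the T-box half-site and 12.4% the TATA box, and the median was 52.4% G or C. A match is a run of letters and not a shown binding site.

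Values are FPKM, fragments relative to the length of the gene and the size of the library, and a gene that a library does not list was taken as 0. Depth, estimated from the spacing of low FPKM values, ran from 3010000 to 4280000 fragments and was lowest in both WT Sham libraries, and 14935 to 15852 genes were listed per library. *Card9* itself was at 0.99 and 1.03 FPKM in WT Sham, 3.39 and 5.08 FPKM for WT MI, with 9.85 and 6.94 FPKM under the label *Card9* KO MI. The knockout label therefore did not go with a lower value (limma, log2 change 0.85 against WT MI, SE 0.23, adjusted p = 0.11), the deleted part of the gene is not given in the sources used here, and a whole-gene value cannot show a missing exon. The group is named by its label, and each direction against WT MI rests on it. Of the 10 cardiomyocyte markers, all were above 0 in every library, with summed FPKM of 47600 to 48800 in WT Sham and 26400 to 31100 in the 4 MI libraries. Against WT Sham, 6 were lower and 2 higher (*Nppa* and *Myh7*) in WT MI at a limma adjusted p below 0.05. Of all genes tested, 9.39% were lower and 27.7% higher there. In *Card9* KO MI, 8 were lower and 1 higher (*Nppa*), beside 14.3% and 34.8% of all genes tested. Markers of lung and other epithelia, a possible source of mesothelium-like RNA, summed to 0.54 to 1.79 FPKM, and 8 of these 12 genes, among them *Epcam* and *Sftpc*, were listed in no library. In bulk tissue, fewer cells of a type and less RNA per cell cannot be told apart.

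The members differed widely in level. Only *Aldh1a2*, *Prg4* and *Wt1* stood at 1 FPKM or more in every library, while *Msln*, *Upk1b*, *Lrrn4* and *Bnc1* reached it in none. The summed FPKM of the 10 was 18.3 and 20.6 for WT Sham, 180.0 and 104.0 for WT MI, with 65.8 and 59.4 for *Card9* KO MI. Most of each MI sum came from *Prg4* and *Aldh1a2*. By group mean, *Prg4* was first and *Wt1* second in WT Sham, *Prg4* first and *Aldh1a2* second in WT MI, and *Aldh1a2* first and *Prg4* second in *Card9* KO MI. In WT Sham the libraries of *Wt1* and *Aldh1a2* overlapped, so these neighbours in the order did not differ beyond their spread. In WT MI the nearest values of *Prg4* (53.19 FPKM, second library) and *Aldh1a2* (52.98 FPKM, first library) almost met.

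**Figure D1:**
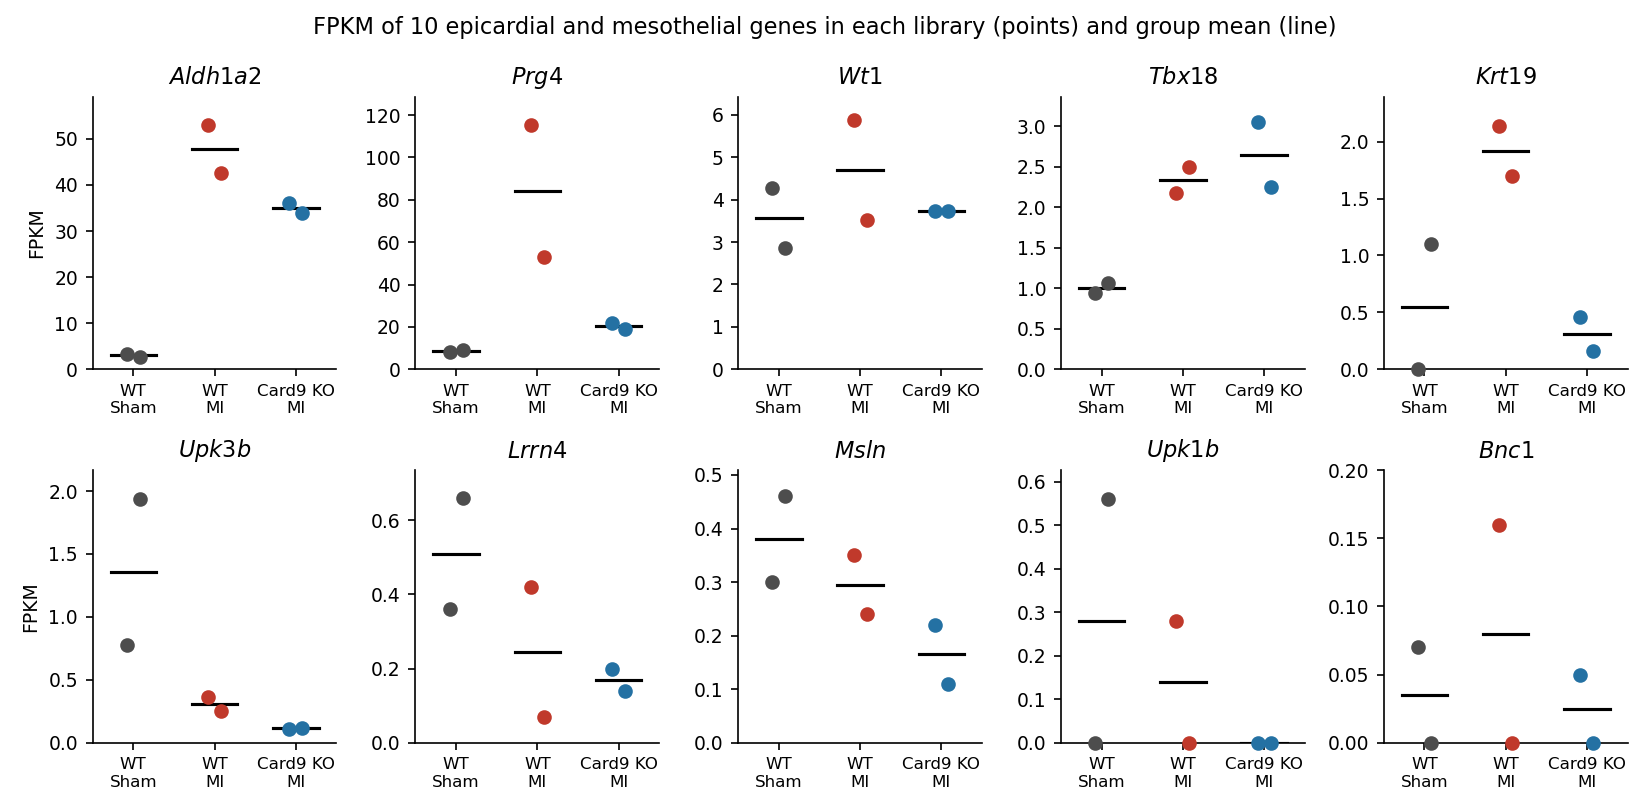
FPKM (linear axis from 0, scaled per panel) of the 10 genes in each of the 6 libraries; points are libraries and lines are means of 2. *Aldh1a2*, *Prg4* and *Tbx18* are higher in both MI groups than in WT Sham, *Krt19* is highest in WT MI, and the lower row lies under 2 FPKM in every library.

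For the tests, 13120 genes with at least 1 FPKM in at least 2 of the 6 libraries were fitted with limma on log2(FPKM + 1), and a gene was called at an adjusted p (Benjamini-Hochberg) below 0.05. Log2 changes are on this scale and understate the change of low genes, and folds are ratios of the group means of FPKM. Counts at an unadjusted p below 0.05 are given as descriptions, because the share of all genes tested at that level was not counted. Of the 10 members, 5 passed the filter (*Wt1*, *Tbx18*, *Aldh1a2*, *Krt19* and *Prg4*) and 5 did not. *Tbx18* and *Krt19* passed mainly through the MI libraries, so the count of members called and the median change among those that passed are descriptions. Low genes of the lists read further below also passed through the MI libraries, *Has2*, *Cdh3*, *Crabp2* and *Aldh1a3* among them. *Cemip* and *Crabp1* passed through *Card9* KO MI alone. The counts and medians of those lists are therefore descriptions too.

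The first comparison asks how these genes stood 3 days after infarction in wild-type hearts. *Aldh1a2*, *Prg4* and *Tbx18* rose, *Krt19* and *Wt1* were not called, and no tested member fell by limma, also at an unadjusted p below 0.05. Of all genes tested, 27.7% were called higher and 9.39% lower, so a rise was common among all genes. The median log2 change was 1.01 over the 5 members tested, which is the value of *Krt19*, and 0.19 over all genes tested. The members' median leaves out the 5 under the filter, whose log2 changes without a filter ran from -0.81 to 0.06. With quantile normalization the median of all genes tested moved to -0.09 and the calls from 3637 higher and 1232 lower to 2195 higher and 2445 lower.

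*Aldh1a2* was at 3.35 and 2.76 FPKM in WT Sham and at 52.98 and 42.49 FPKM in WT MI. Both WT MI libraries lay far above both WT Sham libraries, with means of 3.05 ± 0.417 and 47.7 ± 7.42 FPKM (SD, n = 2 each). The rise was 15.6-fold (limma, log2 change 3.58, SE 0.14, adjusted p = 1.1e-05), and it was called under all 18 alternative settings. In estimated fragments, the gene went from 23.9 and 18.8 to 482.2 and 376.1 per library. *Aldh1a2* makes the retinoic acid that the epicardium is known for, and its rise exceeded the overall shift of the table under each scaling tried.

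*Prg4*, the gene of lubricin, was at 8.19 and 9.16 FPKM in WT Sham and at 115.33 and 53.19 FPKM in WT MI. The groups did not overlap, and the first WT MI library was higher than the second by more than the whole second value. The rise of the means was 9.71-fold (limma, log2 change 3.04, SE 0.30, adjusted p = 0.00031) and was called under all 18 alternatives. Leaving out single libraries gave log2 changes of 2.49 to 3.59.

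*Tbx18*, a T-box factor of the embryonic epicardium, was at 0.94 and 1.06 FPKM in WT Sham and at 2.17 and 2.49 FPKM in WT MI. The groups did not overlap. The means differed 2.33-fold (limma, log2 change 0.73, SE 0.21, adjusted p = 0.027). The call was lost under 7 of 17 alternatives: without any 1 of the 4 libraries compared (adjusted p = 0.071 to 0.12, log2 change 0.67 to 0.80), with upper-quartile scaling (0.61, adjusted p = 0.052), with quantile normalization (0.38, adjusted p = 0.17), and where a fold of at least 2 on the log scale was also asked for.

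*Wt1*, the factor most often used to mark epicardium, was at 4.27 and 2.86 FPKM in WT Sham and at 5.88 and 3.51 FPKM in WT MI. The libraries of the groups overlapped, and the first library was the higher in both groups. The log2 change was 0.30 (limma, 95% interval -0.27 to 0.88, adjusted p = 0.37) and turned to -0.01 with quantile normalization. The interval reaches to almost a log2 unit, so a rise of that size cannot be told from none at this depth and number of libraries.

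*Krt19*, an epithelial keratin of mesothelium, was not listed in the first WT Sham library, was at 1.10 FPKM in the second, and at 2.14 and 1.70 FPKM in the WT MI libraries. Both WT MI values lay above both WT Sham values. The log2 change was 1.01 (limma, SE 0.37, adjusted p = 0.065). These values rest on about 5.2 fragments in the second WT Sham library and on 13.6 and 10.5 in WT MI. The log2 change was 0.47 without the first WT Sham library and 1.54 without the second. It was called under 2 of 16 alternatives.

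**Figure D2:**
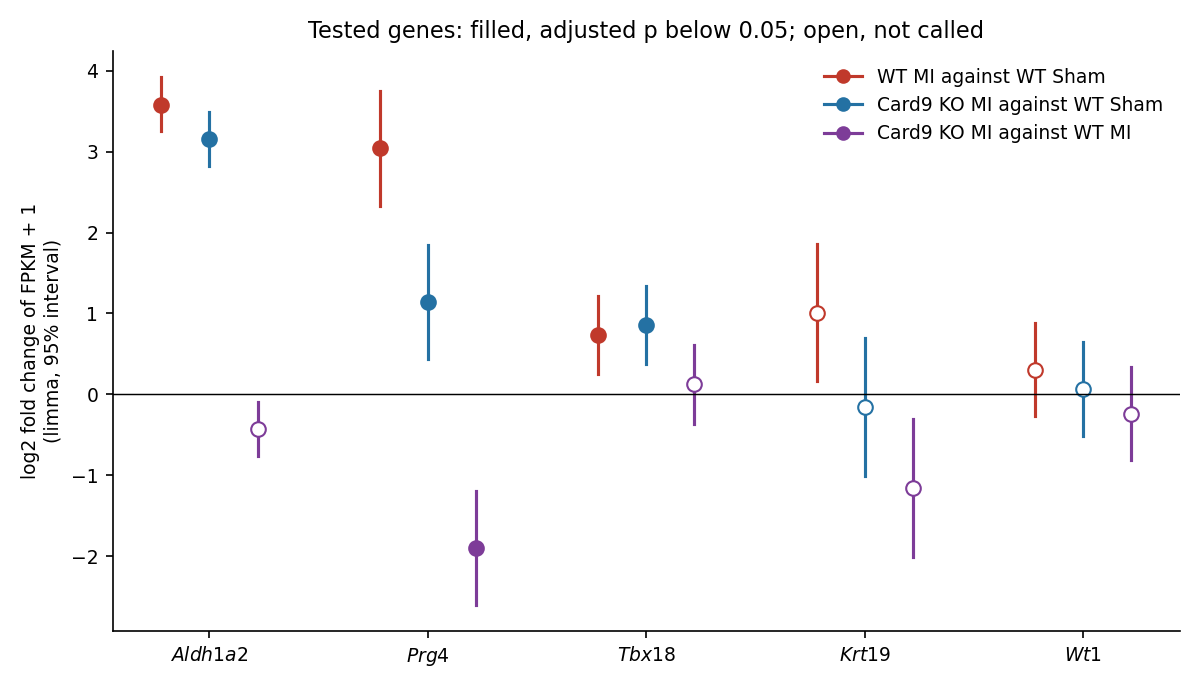
Log2 change of FPKM + 1 (y axis) of the 5 members tested, in 3 comparisons; points are limma estimates over 2 libraries against 2, and lines are 95% intervals. *Aldh1a2* at 3.58 and *Prg4* at 3.04 lead WT MI against WT Sham, and *Prg4* at -1.9 is the filled point of *Card9* KO MI against WT MI.

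The 5 members under the filter include most of the genes that mark mesothelium in general, and none of them was above 0.5 FPKM in any MI library. *Upk3b*, a uroplakin of mesothelial cells, was at 0.78 and 1.94 FPKM in WT Sham, 0.36 and 0.25 FPKM in WT MI, with 0.11 and 0.12 FPKM in *Card9* KO MI. Its 3 groups did not overlap and stood in that order. The values rest on an estimated 5.8 and 13.7 fragments for WT Sham, 3.4 and 2.3 for WT MI, with 1.1 and 1.2 for *Card9* KO MI. Fitted without a filter, *Upk3b* had a log2 change of -0.81 in WT MI against WT Sham (limma, adjusted p = 0.06) and of -1.04 in *Card9* KO MI against WT Sham (limma, SE 0.24, adjusted p = 0.022). In that unfiltered fit the other 4 were called in none of the 3 comparisons.

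*Lrrn4* was at 0.36 and 0.66 FPKM in WT Sham, 0.42 and 0.07 FPKM in WT MI, with 0.20 and 0.14 FPKM in *Card9* KO MI, where the WT MI libraries overlapped both other groups. *Msln*, the gene of mesothelin, was at 0.30 and 0.46 FPKM in WT Sham, 0.35 and 0.24 FPKM in WT MI, with 0.22 and 0.11 FPKM in *Card9* KO MI. Both *Card9* KO MI libraries were the lowest of the 6 for *Msln*, on an estimated 1.99 and 0.96 fragments, and all 6 libraries lay under the 3 fragments taken here as the limit that a count of 0 allows. *Upk1b*, the other uroplakin of the list, was at 0 and 0.56 FPKM in WT Sham, at 0.28 and 0 FPKM in WT MI and at 0 in both *Card9* KO MI libraries, where 3 fragments would be worth 0.396 and 0.413 FPKM. *Bnc1*, the basonuclin gene, was above 0 in 3 libraries, the first of each group, at 0.07, 0.16 and 0.05 FPKM. Except for *Upk3b* and *Lrrn4*, these genes rested on at most about 3 fragments in each library, and a difference of the order seen was not detectable at this depth.

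**Figure D3:**
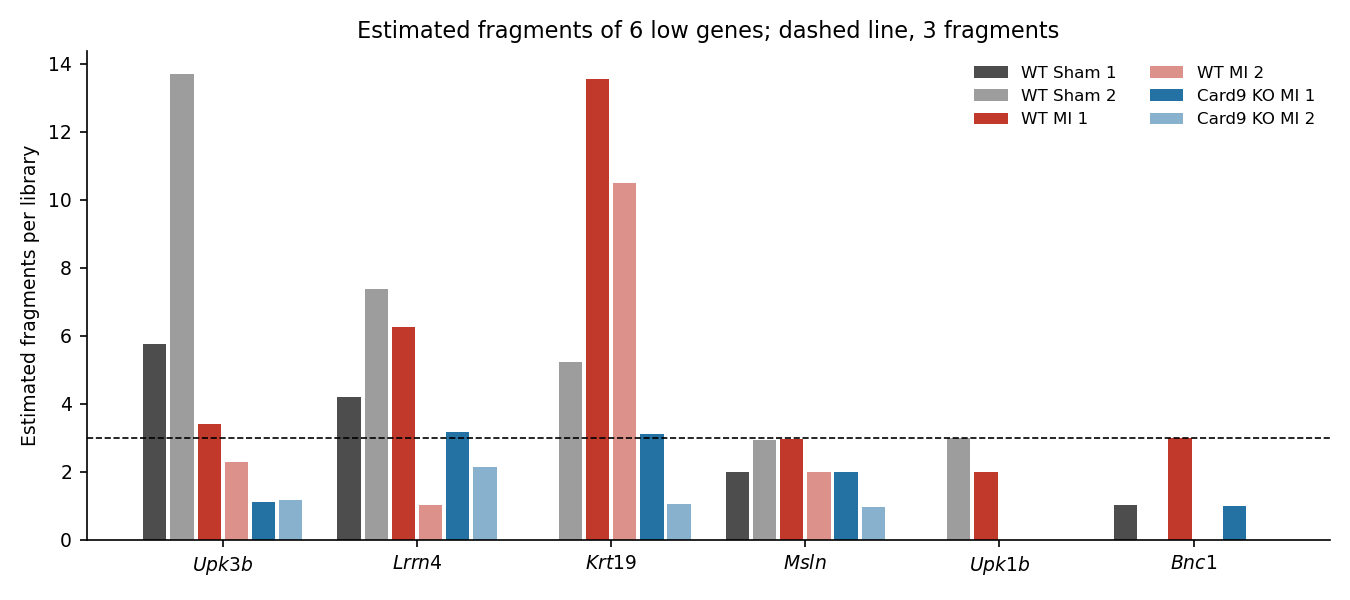
Estimated fragments per library (y axis, linear from 0) of 6 low members; bars are libraries and the dashed line marks 3 fragments. *Upk3b* stands at 5.8 and 13.7 in WT Sham and at 1.1 and 1.2 in *Card9* KO MI. *Krt19* peaks in WT MI at 13.6, and *Msln*, *Upk1b* and *Bnc1* stay at or under 3.

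Summed over these 5 genes, the estimated fragments were 13.0 and 27.0 for WT Sham, 17.6 and 5.3 for WT MI, with 7.3 and 4.3 for *Card9* KO MI. The first WT MI library lay within the WT Sham range. The other uroplakins were as low: *Upk1a* stayed under 1 FPKM, *Upk2* was listed in 2 libraries and *Upk3a* in none.

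The second comparison asks how the genes stood in infarcted hearts labelled *Card9* KO against infarcted wild-type hearts. Of the 5 members tested, *Prg4* fell and the other 4 were not called, 2 of which (*Aldh1a2* and *Krt19*) had negative changes at an unadjusted p below 0.05. Over all genes tested, 0.816% were called higher and 0.587% lower. The median log2 change was -0.43 over the 5 members, which is the value of *Aldh1a2*, and 0.04 over all genes tested. The members' median leaves out the 5 under the filter, whose log2 changes without a filter ran from -0.23 to -0.07.

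*Prg4* was at 115.33 and 53.19 FPKM in WT MI and at 21.77 and 19.01 FPKM in *Card9* KO MI. Both *Card9* KO MI libraries lay under both WT MI libraries, and their mean was 24.2% of the WT MI mean (limma, log2 change -1.9, SE 0.30, adjusted p = 0.038). *Prg4* is also among the genes that the study picked from these libraries for a heat map, so the call is no independent evidence. It was kept under 8 of 18 alternatives, with an adjusted p of 0.018 to 0.15 over all of them. The call was lost without the first WT MI library (log2 change -1.34, adjusted p = 0.070), without either *Card9* KO MI library (adjusted p = 0.15 and 0.095) and without either WT Sham library, which enter the shared estimate of the spread (adjusted p = 0.062 and 0.063).

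*Aldh1a2* was at 36.16 and 33.93 FPKM in *Card9* KO MI, under both WT MI libraries (52.98 and 42.49). Its mean was 73.4% of the WT MI mean, with a log2 change of -0.43 (limma, 95% interval -0.76 to -0.09, adjusted p = 0.16). It was called under none of the 18 alternatives.

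*Krt19* was at 0.46 and 0.16 FPKM in *Card9* KO MI, on about 3.1 and 1.0 fragments, and again under both WT MI libraries (2.14 and 1.70). The log2 change was -1.16 (limma, 95% interval -2.01 to -0.31, adjusted p = 0.14). *Prg4* and *Aldh1a2* had the same order of libraries, and of these 3 members only *Prg4* passed the test. The share of all genes tested with such an order was not counted, so it is given as a description.

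*Tbx18*, at 3.05 and 2.25 FPKM in *Card9* KO MI, overlapped WT MI (log2 change 0.13, 95% interval -0.36 to 0.61, limma adjusted p = 0.79). *Wt1*, at 3.73 FPKM in both *Card9* KO MI libraries, also lay between its WT MI values (log2 change -0.24, 95% interval -0.81 to 0.34, limma adjusted p = 0.65). The epicardial transcription factors *Wt1* and *Tbx18* therefore showed no called difference between the infarcted groups, and their intervals cover changes in either direction.

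Markers of other cells also differed between the groups, and not all in the same direction as the members. Of 10 neutrophil markers, 8 were listed in at least 1 library, *Ly6g* and *Camp* in none, and *Ngp* and *Ltf* stayed under 0.3 FPKM. Their sum was 7.64 and 5.4 FPKM for WT Sham, 212.0 and 93.2 for WT MI, with 59.8 and 46.7 for *Card9* KO MI, and *S100a9* was the most abundant of them in every MI library. The first WT MI library was the highest of the 6 for this sum and for *Prg4*, *Aldh1a2*, *Krt19* and *Wt1*. The neutrophil sum in *Card9* KO MI lay under that in WT MI, although limma called none of the 6 neutrophil markers tested in that comparison, 2 of them having an unadjusted p below 0.05. Of all genes tested, 0.816% were called higher there and 0.587% lower. The part of these cells in the *Prg4* difference was not tested.

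The 10 fibroblast markers, all above 0 in every library, summed to 533.0 to 566.0 FPKM in WT Sham, 1600.0 to 2130.0 in WT MI and 3240.0 to 3370.0 in *Card9* KO MI. The 10 macrophage markers, likewise all above 0, summed to 358.0 to 416.0 FPKM in WT Sham, 1420.0 to 1820.0 in WT MI and 2110.0 to 2900.0 in *Card9* KO MI. All 10 rose in WT MI against WT Sham, where 27.7% of all genes tested were called higher. In *Card9* KO MI against WT MI limma called none of the 10, although 6 had positive changes at an unadjusted p below 0.05. The libraries of *Lyz2*, the most abundant of them, overlapped between these 2 groups. The 8 smooth muscle and pericyte markers, also all above 0, summed to 211.0 to 244.0 FPKM in WT Sham, 279.0 to 298.0 in WT MI and 523.0 to 543.0 in *Card9* KO MI. They did not all follow their sum. Against WT Sham, limma called 4 of the 8 higher and 2 lower in WT MI, beside 27.7% and 9.39% of all genes tested. In *Card9* KO MI it called 6 higher and 2 lower, beside 34.8% and 14.3%. The 2 lower were *Rgs5* and *Kcnj8* both times. *Tbx18* was higher in both MI groups than in WT Sham, and the part of these cells in it was not tested. *Prg4*, *Aldh1a2* and *Krt19* had lower means in *Card9* KO MI than in WT MI, where the fibroblast sum was the higher in *Card9* KO MI. The fibroblast markers did not all follow their sum. In that comparison limma called 4 of the 10 higher and none lower, beside 0.816% and 0.587% of all genes tested. At an unadjusted p below 0.05, 6 changes were positive and 1 negative. The negative one was *Pdgfra* (limma, log2 change -0.52, adjusted p = 0.094). *Dcn* also had a lower mean, with overlapping libraries. The part of fibroblasts in the members' differences was not tested.

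The third comparison sets *Card9* KO MI against WT Sham, and it shares its WT Sham libraries with the first. *Aldh1a2*, *Prg4* and *Tbx18* rose here too, and *Wt1* and *Krt19* were not called. Over all genes, 34.8% were called higher and 14.3% lower, and quantile normalization turned the 4569 higher and 1875 lower calls into 2754 and 3443. *Aldh1a2* was 11.5-fold higher (limma, log2 change 3.16, SE 0.14, adjusted p = 9.5e-06), called under all 18 alternatives. *Prg4* was 2.35-fold higher (limma, log2 change 1.14, SE 0.30, adjusted p = 0.016), called under 15 of 18, and lost without either WT Sham library or without the first *Card9* KO MI library (adjusted p = 0.073, 0.052 and 0.088).

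*Tbx18* was 2.65-fold higher in *Card9* KO MI than in WT Sham (limma, log2 change 0.86, SE 0.21, adjusted p = 0.011). The call held under 14 of 17 alternatives and was lost with quantile normalization (0.41, adjusted p = 0.13), without the first *Card9* KO MI library (0.70, adjusted p = 0.075), and where a fold of at least 2 on the log scale was also asked for. *Wt1* had a log2 change of 0.07 (limma, 95% interval -0.51 to 0.65, adjusted p = 0.84) and *Krt19* of -0.16 (limma, 95% interval -1.01 to 0.70, adjusted p = 0.75). Both signs turned under other settings, *Wt1* to -0.13 with upper-quartile scaling and *Krt19* to 0.14 with an added FPKM of 0.1.

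Further genes of epicardium and mesothelium were read from a second list of 23, of which 21 were listed and 15 tested. In WT MI against WT Sham 3 rose, none fell by limma (2 had negative changes at an unadjusted p below 0.05) and 12 were not called, with a median log2 change of 0.21 against 0.19 for all genes tested, of which 27.7% were called higher. Under alternatives that included each of the other scalings, no filter, no trend and the replicate block, 1 or 2 genes of the list were called lower, and with a mean of at least 5 FPKM none was called higher. The 3 were the tight junction gene *Cldn15* (1.18 and 1.06 FPKM in WT Sham, 4.48 and 3.39 in WT MI, limma adjusted p = 0.003), the P-cadherin gene *Cdh3* (0 and 0.08 against 0.91 and 1.25 FPKM, limma adjusted p = 0.011) and the integrin gene *Itga4* (1.79 and 1.96 against 4.08 and 4.50 FPKM, limma adjusted p = 0.0053). *Itga4* is also an integrin of leukocytes. *Muc16*, which encodes the mesothelial mucin that binds mesothelin, and *Krt14* were listed in no library.

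In *Card9* KO MI against WT MI, 1 gene of that list rose, 1 fell and 13 were not called, where 0.816% of all genes tested were called higher and 0.587% lower. *Krt18*, a keratin of simple epithelia, was at 0.91 and 0.24 FPKM in WT Sham, 1.78 and 1.10 FPKM in WT MI and 9.87 and 9.41 FPKM in *Card9* KO MI. Both *Card9* KO MI libraries lay above all others, and the difference from WT MI was 6.69-fold (limma, log2 change 2.14, SE 0.26, adjusted p = 0.018, called under 11 of 17 alternatives). *Krt8*, whose keratin pairs with keratin 18, stayed at 0.26 and 0.27 FPKM in *Card9* KO MI and at 0.69 and 0.42 FPKM in WT MI. *Efemp1*, a matrix glycoprotein gene, was at 5.47 and 5.12 FPKM in WT MI and 1.48 and 2.14 FPKM in *Card9* KO MI (limma, log2 change -1.17, adjusted p = 0.048, called under 6 of 17 alternatives). *Krt19* and *Krt18*, both keratins of simple epithelia, thus had opposite signs in this comparison.

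Beside *Aldh1a2*, the retinoid pathway was read from 19 genes, of which 14 were tested, and in WT MI against WT Sham 4 rose and 3 fell, where 27.7% of all genes tested were called higher and 9.39% lower. The 4 became 2 without the first WT MI library, and the 3 became 6 with each of the other scalings and 1 without the first WT Sham library. Among the enzymes of synthesis, *Rdh10*, which makes retinaldehyde from retinol, was at 2.75 and 4.45 FPKM in WT Sham and 7.74 in both WT MI libraries (limma, log2 change 0.95, adjusted p = 0.0097). *Aldh1a3*, a paralog of *Aldh1a2*, was at 0.73 and 0.10 against 2.29 and 2.51 FPKM (limma, log2 change 1.3, adjusted p = 0.0058), so it rose to a level far under that of *Aldh1a2*. *Aldh1a1*, the other paralog, was at 9.49 and 9.09 against 7.42 and 8.64 FPKM and was not called.

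Among the binding proteins, *Crabp2*, which carries retinoic acid to its receptor, was not listed in either WT Sham library and was at 2.53 and 1.45 FPKM in WT MI (limma adjusted p = 0.015). Of the receptors, *Rara* rose (limma, log2 change 1.07, adjusted p = 0.00081), and *Rxrg* fell from 53.76 and 53.43 FPKM to 26.38 and 24.73 FPKM (limma, log2 change -1.04, adjusted p = 0.00027). *Cyp26b1*, which degrades retinoic acid, fell from 7.53 and 5.84 FPKM to 0.47 and 2.86 FPKM (limma, log2 change -1.68, adjusted p = 0.015). *Rxra*, at 19.77 and 19.82 against 15.18 and 15.14 FPKM, was the third that fell (limma adjusted p = 0.046, called under 10 of 18 alternatives).

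In *Card9* KO MI against WT MI, *Rxrg* was lower again, at 15.82 and 16.46 FPKM (limma, log2 change -0.63, adjusted p = 0.037, called under 7 of 18 alternatives). The other 13 tested genes of the pathway were not called by limma, where 0.816% of all genes tested were called higher and 0.587% lower. At an unadjusted p below 0.05, 2 genes of the pathway had positive changes (*Crabp1* and *Rxrb*) and 5 negative ones (*Rxrg*, *Rdh10*, *Rbp4*, *Crabp2* and *Rarb*). *Rdh10*, at 3.84 and 4.53 FPKM, stood under both WT MI libraries as *Aldh1a2* did (limma, log2 change -0.76, adjusted p = 0.11). Against WT Sham, 3 of the 14 were higher in *Card9* KO MI and 4 lower, beside 34.8% and 14.3% of all genes tested.

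Genes of epithelial-mesenchymal transition, the change of state by which epicardial cells leave the sheet, were read from a list of 12, of which 10 were tested. In WT MI against WT Sham 5 rose and none fell (limma, also none at an unadjusted p below 0.05), with a median log2 change of 0.67 against 0.19 for all genes tested, of which 27.7% were called higher. The 5 became 3 with each of the other scalings and without any single library but the first WT Sham one, without which they became 7. The snail factor *Snai1* was at 4.92 and 2.88 FPKM in WT Sham and 21.26 and 16.47 FPKM in WT MI (limma, log2 change 2.04, adjusted p = 0.00038). *Vim*, the vimentin gene of mesenchymal cells and leukocytes, rose from 141 and 113.7 to 721 and 724.1 FPKM (limma, log2 change 2.5, adjusted p = 4.1e-05). *Zeb2*, *Twist2* and *Prrx1* were the other three, and *Twist2* and *Prrx1* were each called under 5 alternatives, of 17 and 18. *Cdh1*, the E-cadherin gene of epithelia, was under 1 FPKM in every library and so was not tested. It was at 0.07 FPKM in the first WT Sham library and not listed in the second. Every MI library lay above these, from 0.33 FPKM (second *Card9* KO MI library) to 0.89 FPKM (first WT MI library). In *Card9* KO MI against WT MI none of the 10 was called by limma, and 4 had an unadjusted p below 0.05, 3 of them with positive changes. Of all genes tested, 0.816% were called higher there and 0.587% lower. Fibroblasts and leukocytes express several genes of this list, and their part in these rises was not tested.

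Hyaluronan, a matrix sugar polymer made by mesothelial cells among others, was read from 12 genes, of which 9 were tested. In WT MI against WT Sham 6 rose and none fell (limma, also none at an unadjusted p below 0.05), with a median log2 change of 0.59 against 0.19 for all genes tested, of which 27.7% were called higher. The 6 became 3 with quantile normalization, without the second WT Sham library and without the first WT MI library, and 4 to 5 under other alternatives that changed it. *Has2*, a hyaluronan synthase, was at 0.22 and 0.08 FPKM in WT Sham and 2.01 and 1.54 FPKM in WT MI (limma, log2 change 1.27, adjusted p = 0.0041). It reached the 1 FPKM of the filter in MI libraries only. *Cd44*, a hyaluronan receptor that leukocytes also carry, rose from 2.84 and 3.19 to 27.78 and 29.03 FPKM (limma, log2 change 2.87, adjusted p = 4.2e-05).

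In *Card9* KO MI against WT MI, *Cemip*, which encodes a protein of hyaluronan breakdown, was higher at 2.32 and 2.89 against 0.27 and 0.21 FPKM (limma, log2 change 1.54, adjusted p = 0.034, called under 7 of 16 alternatives). It reached the 1 FPKM of the filter in *Card9* KO MI libraries only. *Lyve1*, a receptor of lymphatic endothelium and resident macrophages, was lower at 4.70 and 6.84 against 12.57 and 14.38 FPKM (limma, log2 change -1.11, adjusted p = 0.037, called under 7 of 18). *Cd44*, at 34.55 and 24.26 FPKM in *Card9* KO MI, overlapped WT MI (limma, log2 change 0.03, adjusted p = 0.95).

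**Figure D4:**
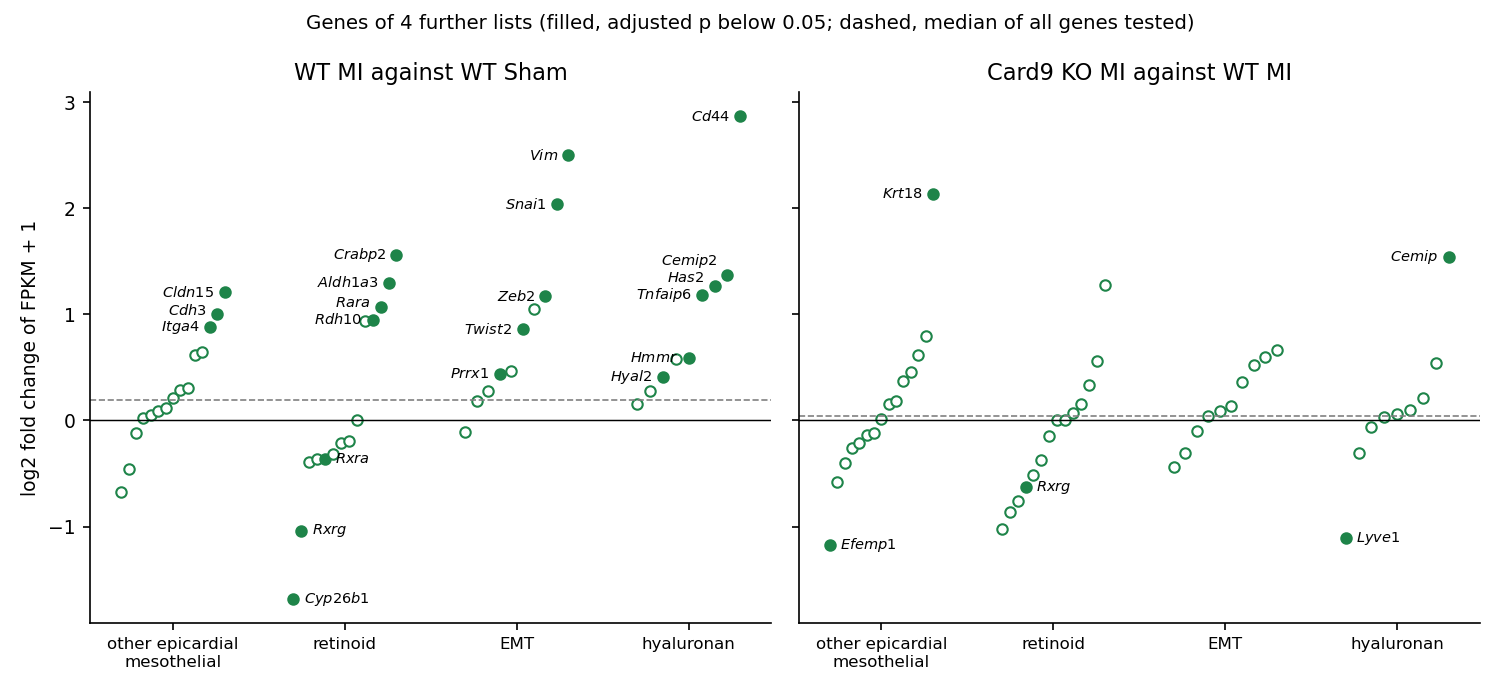
Log2 change of FPKM + 1 (y axis) of the tested genes of 4 further lists, WT MI against WT Sham on the left and *Card9* KO MI against WT MI on the right; each point is 1 gene, filled where called, and the dashed line is the median of all genes tested. *Cd44* at 2.87 is the highest point on the left and *Krt18* at 2.14 on the right, where 5 points are filled in all.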

How the data were processed

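RNA-seq of heart tissue was analysed in 3 groups of 2 libraries, grouped by their labels. Per the study's methods and the submitters' processing notes, the authors filtered the reads, mapped them to mm9 with BWA and Bowtie2 and deposited FPKM values per NCBI gene number, rounded to 2 decimals, for genes above 0. The annotation and strand setting are not given in the sources used here. Of the gene numbers, 17390 had a symbol and 51 had none. Depth was estimated from the FPKM steps of 5147 genes with 1 annotated transcript. Only 65.1% to 67.5% of low values came out whole within 0.1 fragment, so no test on counts was run, and fragments and the limit of 3 fragments cover counting error only.

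Genes were tested with limma 3.58.1 (lmFit, eBayes with trend) in R 4.3.3, all 6 libraries in a single fit without covariates, after a test on simulated data. Summaries used Python 3.11.15 and pandas 2.3.3. As alternatives, 0.1 or 5 FPKM was added in place of 1, the filter was dropped, set to a mean of 5 FPKM or to genes listed in all 6 libraries, 3 other scalings were used, the fit was run on the compared groups alone, with no trend, with a block for the replicate number or with a fold of at least 2, and each library was left out. With 2 libraries against 2, no exact permutation test of a single gene can pass 0.05, and none was run. Named genes are *Card9*, the 10 members, members of the lists given, the most abundant genes of marker lists and the 5 genes most like the members. *Krt8*, *Epcam*, *Sftpc*, *Ly6g*, *Camp*, *Ngp*, *Ltf*, *Pdgfra*, *Dcn*, *Nppa*, *Myh7*, *Rgs5* and *Kcnj8* are named as list members. The members and lists were chosen with earlier results of these data known. A further gene of the retinoid pathway was left out of its list and is not reported here.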

Additional observations from a re-analysis of the deposited data

How the results depend on the processing

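Of 243 recomputed log2 changes of members, 210 kept their sign and their side of the threshold. In WT MI against WT Sham, 3 members were called higher, and 2 to 4 under the alternatives. *Prg4*, the 1 member called lower in *Card9* KO MI than in WT MI, became 0 with an added FPKM of 0.1, with no filter, with only the 2 groups compared, with eBayes without trend, with the replicate block, and 0 to 1 with single libraries left out. In *Card9* KO MI against WT Sham, the members called higher numbered 1 to 3 with single libraries left out, and 1 member (*Upk3b*) was called lower with no filter.

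Signs turned where nothing was called. *Wt1* went to -0.01 with quantile normalization (WT MI against WT Sham), ranged from -0.54 to 0.07 with single libraries left out (*Card9* KO MI against WT MI), and against WT Sham went to -0.13 with upper-quartile scaling, -0.35 with quantile normalization and -0.07 when the 100 most abundant genes were left out of the scaling, and ranged from -0.16 to 0.29 over single libraries left out. *Tbx18* ranged from -0.03 to 0.28 in *Card9* KO MI against WT MI. *Krt19* in *Card9* KO MI against WT Sham went to 0.14 with an added FPKM of 0.1 and ranged from -0.69 to 0.38. The causes were not tested.

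Over all genes, calls in *Card9* KO MI against WT MI numbered 107 higher and 77 lower, against 7 and 5 with no filter, 40 and 18 without trend, 45 and 26 with the replicate block, and 3 to 63 higher with single libraries left out. In WT MI against WT Sham they numbered 3637 and 1232, against 2603 and 2159 with upper-quartile scaling and 1529 and 178 with a fold of at least 2. Libraries with the same replicate number did not deviate together over the genes as a whole (Pearson r over 13120 genes of 0.00244, -0.00828 and 0.0204 for the 3 pairs of groups). This check cannot show a pairing that affects only some genes. With a library left out, the remaining one is assumed to vary like the other groups. Depth limits *Msln*, *Upk1b* and *Bnc1* most, at about 3 fragments or fewer in each library.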

Other observations

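The genes whose log2(FPKM + 1) followed the mean standardised profile of the 5 tested members most closely over the 6 libraries were *Trem1*, *9530026F06Rik*, *Flii*, *Slc35f6* and *Gsr*, with Pearson r of 0.994 to 0.998. This describes 6 libraries in 3 groups that share depth and composition, and the 5 were the highest of all genes tested. *Trem1*, a receptor of neutrophils and monocytes, was not listed in either WT Sham library and was at 3.01 and 1.42 FPKM in WT MI and at 1.07 and 0.64 FPKM in *Card9* KO MI. *Flii*, a gelsolin-family actin regulator, was at 47.19 and 49.39 FPKM in WT Sham, 69.58 and 62.2 FPKM in WT MI and 57.91 and 56.15 FPKM in *Card9* KO MI. *Gsr*, the glutathione reductase gene, was at 10.18 and 9.39, 24.05 and 17.49, and 15.47 and 14.5 FPKM in the same order.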
